A study of Mus musculus with 12 samples.

Results

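The genes described here encode antiviral effectors that interferon induces, other than the Ifit proteins, oligoadenylate synthetases and interferon-induced GTPases. The list held 10 genes: Rsad2, Cmpk2, Rtp4, Bst2, Ifi35, Ifi44, Samhd1, Zbp1, Eif2ak2 and Xaf1. Members were found by their symbol in the platform annotation of the array. Of the 10 genes, 9 had a probe set of their own symbol, with 23 probe sets in all among the 45037 that were tested, and among 18193 genes with a value. Ifi44 had none and was not analysed here. Each gene is represented by its brightest probe set, by mean over all arrays, and its other probe sets stand beside that one.

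RNA came from C3H10T1/2, a line of mouse embryo fibroblasts that behaves much like mesenchymal stem cells, hybridised to 12 Affymetrix arrays in 4 groups of 3. siRNA-140, a small interfering RNA that mimics miR-140, was set against siRNA-96. LNA-antimicroRNA-140, a locked nucleic acid oligonucleotide that suppresses endogenous miR-140, was set against LNA-antimicroRNA-449. All 12 samples had been transfected with an oligonucleotide, and each control acts on another microRNA, so no difference isolates miR-140. The labels give no dose, time or transfection reagent. Nothing says that replicates came from separate cultures, and p-values therefore measure only the spread between these samples, which may be technical.

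Interferons are secreted when a cell senses foreign nucleic acid. Type I interferon binds its receptor, and the kinases Jak1 and Tyk2 then activate transcription factors. These bind the interferon-stimulated response element in promoters and switch on many antiviral genes. Their products act at different steps: on nucleotide supply, on budding virus, on protein synthesis and on cell death.

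Levels below are RMA log2 values, so a difference of 1 is a 2-fold change. Median log2 values were 3.95 to 4.02 on the siRNA arrays and 4.32 to 4.38 on the antimicroRNA arrays. Levels are therefore set side by side across the experiments, with no test between them. By their overall profiles the siRNA arrays crossed the labelled groups. Over all probe sets, siRNA-140 replicate 3 correlated best with siRNA-96 replicate 2 (r = 0.9976). In turn, siRNA-96 replicate 1 correlated best with siRNA-140 replicate 1 (r = 0.9952). Whether the labels of these arrays are right cannot be settled from the values, and every siRNA-140 against siRNA-96 difference depends on it. The comparisons are therefore given with and without both. The 18S ribosomal RNA control signal was 10.47 on siRNA-96 replicate 1 and 5.4 to 7.86 on the other siRNA arrays. It was 10.23 on antimicroRNA-449 replicate 1 and 5.92 to 6.75 on the other antimicroRNA arrays, and its part in the results was not tested. The 3′ minus 5′ control signal for beta-actin lay between 0.16 and 0.36 on all 12 arrays.

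The labelled cell type was checked against marker genes. The 9 mesenchymal stromal markers averaged 10.01 to 10.09 with siRNA-140 and 9.9 to 10.11 with siRNA-96. Vim (13.38 to 13.71 over all arrays) and Col1a1 (13 to 13.59) were among the brightest, while Thy1 was dim (3.09 to 3.98). The 9 macrophage and leukocyte markers averaged 3.97 to 4.13 with siRNA-140 and 4.05 to 4.11 with siRNA-96, near the array median, and 4.18 to 4.3 with antimicroRNA-140 and 4.18 to 4.29 with antimicroRNA-449. Of these, Ptprc (2.01 to 2.7), Adgre1 (2.83 to 3.33), Itgam (1.94 to 2.86) and Tyrobp (2.82 to 3.64) lay below the median of every array. Fcer1g (3.69 to 4.14) lay near it. Cd68 (4.55 to 5.66), Csf1r (4.77 to 5.63) and Lyz2 (4.66 to 5.16) lay above the median of every array, and Cd14 was the brightest (6.59 to 7.47). The epithelial markers averaged 3.73 to 3.78 with siRNA-140 and 3.55 to 3.91 with siRNA-96, and the endothelial markers 3.56 to 3.75 and 3.49 to 3.7 in the same groups. Among the epithelial markers, only Epcam (5.67 to 6.81) and Krt8 (4.53 to 5.41) lay above the median of every array.

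Rsad2 encodes viperin, a radical SAM enzyme that converts CTP into a chain terminator of viral RNA synthesis. Cmpk2 encodes a mitochondrial UMP-CMP kinase, which acts in the supply of pyrimidine nucleotides. The genes are direct neighbours on chromosome 12 with no other protein-coding gene between them in the RefSeq gene table, and are read from opposite strands. Their promoters are shown because the genes are neighbours that interferon is known to induce together, while the readings of their brightest probe sets differed. The dimmer Cmpk2 probe set, given below, had a difference nearer to that of Rsad2. Each window holds 250 bases before and 50 after the start of the gene in RefSeq (GRCm38.p6), 5′ to 3′ on the gene's own strand, at chr12:26456403-26456702 (minus strand) for Rsad2 and chr12:26468965-26469264 (plus strand) for Cmpk2. Capitals mark the core of the interferon-stimulated response element, searched on both strands as GAAA, 2 free bases and GAAA again, or as GAAANGAAA, with 1 free base.
Rsad2: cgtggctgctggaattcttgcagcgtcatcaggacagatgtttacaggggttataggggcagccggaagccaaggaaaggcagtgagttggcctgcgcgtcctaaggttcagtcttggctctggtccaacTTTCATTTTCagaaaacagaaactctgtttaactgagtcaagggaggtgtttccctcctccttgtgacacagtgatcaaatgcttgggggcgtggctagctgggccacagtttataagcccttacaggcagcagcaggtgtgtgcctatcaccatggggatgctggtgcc
Cmpk2: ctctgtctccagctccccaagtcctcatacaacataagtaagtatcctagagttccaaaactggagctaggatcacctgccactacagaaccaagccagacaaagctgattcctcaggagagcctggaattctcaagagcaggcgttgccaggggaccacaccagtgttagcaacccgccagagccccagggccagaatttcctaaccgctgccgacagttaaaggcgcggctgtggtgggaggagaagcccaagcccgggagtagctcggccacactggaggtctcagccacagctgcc
The Rsad2 window held 1 match on the opposite strand at positions -120 to -111, counted from the start of the gene. Neither form was in the Cmpk2 window.

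Values are given by replicate, 1 to 3. Rsad2 read 4.15, 4.04 and 5.12 with siRNA-140, against 4.21, 6.72 and 7.45 with siRNA-96. siRNA-96 replicates 2 and 3 were high and siRNA-96 replicate 1 lay among the siRNA-140 arrays, so the groups overlapped. Rsad2 averaged 4.44 ± 0.59 with siRNA-140 and 6.13 ± 1.7 with siRNA-96 (SD, n = 3 each), a log2 difference of -1.69 ± 0.57 (SE; 95% interval -2.92 to -0.46), which did not pass over all probe sets (limma adjusted p = 0.88). Its other probe sets differed by -2.12 ± 0.66 and -1.22 ± 0.39. With antimicroRNA-140 it read 4.64, 4.62 and 4.57, against 4.77, 4.7 and 4.56 with antimicroRNA-449. These 6 arrays spanned 0.21, while the siRNA arrays spanned 3.41.

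Cmpk2 was dim at both of its probe sets. At the brighter one it read 2.66, 2.56 and 2.74 with siRNA-140, against 2.69, 2.83 and 3.32 with siRNA-96, a log2 difference of -0.29 ± 0.16 (adjusted p = 0.88 by limma). At the dimmer one it read 2.07, 1.87 and 2.42 with siRNA-140, against 2.58, 3.23 and 3.68 with siRNA-96. The groups did not overlap at this dimmer probe set, and its log2 difference of -1.04 ± 0.22 had an unadjusted limma p of 0.000388 but an adjusted p of 0.88. The antimicroRNA-140 arrays read 3.47 to 3.64 and the antimicroRNA-449 arrays 3.23 to 3.68 at the brighter probe set, above all siRNA-140 arrays, and 1.96 to 2.35 and 1.94 to 2.19 at the dimmer one. The probe sets therefore disagreed on the size of the difference and on the order of the experiments.

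Samhd1 encodes an enzyme that breaks down deoxynucleoside triphosphates and so limits reverse transcription. It had 5 probe sets. At the brightest it read 7.48, 7.46 and 7.91 with siRNA-140, against 7.37, 8.07 and 8.05 with siRNA-96. The lowest array was siRNA-96 replicate 1, and the log2 difference was -0.21 ± 0.18 (limma adjusted p = 0.889). The remaining probe sets gave between -0.22 and 0.07. With antimicroRNA-140 it read 7.81, 8.16 and 7.83, against 7.92, 8.16 and 7.93 with antimicroRNA-449, so it was well expressed in every group.

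Bst2 encodes tetherin, a membrane protein that holds budding virus at the cell surface. Its promoter window, at chr8:71537423-71537722 on the minus strand of GRCm38.p6, is shown because it held 2 overlapping matches of the form with 2 free bases, at positions -130 to -121 and -124 to -115, marked in capitals.
Bst2: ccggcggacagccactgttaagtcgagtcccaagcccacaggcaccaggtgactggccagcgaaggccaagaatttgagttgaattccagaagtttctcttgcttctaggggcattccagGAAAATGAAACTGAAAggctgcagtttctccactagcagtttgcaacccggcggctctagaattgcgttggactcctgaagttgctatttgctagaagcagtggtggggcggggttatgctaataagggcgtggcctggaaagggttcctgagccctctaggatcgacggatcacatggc
Bst2 read 4.87, 5.23 and 6.93 with siRNA-140, against 5.65, 7.94 and 8.56 with siRNA-96. siRNA-140 replicate 3 lay between siRNA-96 replicates 1 and 2. The group means were 5.68 ± 1.1 with siRNA-140 and 7.38 ± 1.53 with siRNA-96 (SD, n = 3 each), a log2 difference of -1.71 ± 0.6 (95% interval -3 to -0.41; limma adjusted p = 0.88). With antimicroRNA-140 it read 4.84, 5.07 and 4.75, against 4.88, 4.87 and 4.6 with antimicroRNA-449.

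Rtp4 encodes a chaperone that helps receptors reach the cell surface and is induced by interferon. It read 5.85, 6.33 and 9.03 with siRNA-140, against 6.36, 9.47 and 9.86 with siRNA-96. The widest range of the 9 genes over the siRNA arrays, 4.01, was that of Rtp4. Its group means were 7.07 ± 1.71 with siRNA-140 and 8.56 ± 1.92 with siRNA-96 (SD, n = 3 each), and the log2 difference of -1.49 ± 0.82 had a 95% interval from -3.26 to 0.27. Its dim second probe set differed by -0.39 ± 0.13. With antimicroRNA-140 it read 5.87, 6.55 and 6.07, against 5.84, 5.96 and 5.83 with antimicroRNA-449.

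Eif2ak2 encodes PKR, a kinase that binds double-stranded RNA and stops protein synthesis by phosphorylating eIF2alpha. It read 6.65, 6.82 and 7.4 with siRNA-140, against 6.58, 7.68 and 7.85 with siRNA-96. The same 2 arrays stood with the other group, over a range of 1.27 that was narrower than for Rsad2, Bst2 or Rtp4. The log2 difference was -0.41 ± 0.28 (interval -1.01 to 0.19), with -0.32 ± 0.17 and -0.27 ± 0.16 at its other probe sets (-0.63 ± 0.13 and -0.56 ± 0.12 without both arrays). With antimicroRNA-140 it read 6.69, 7.23 and 6.68, against 6.68, 6.7 and 6.57 with antimicroRNA-449. Its promoter window held 1 match of the form with 2 free bases, at positions 19 to 28.

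Zbp1 encodes a sensor of Z-form nucleic acid that can start necroptosis. It read 4.13, 4.36 and 4.37 with siRNA-140, against 4.53, 4.5 and 4.4 with siRNA-96. It was the only one of the 9 genes, each at its brightest probe set, whose groups did not overlap, and the log2 difference was small, at -0.19 ± 0.1 (interval -0.41 to 0.03; limma adjusted p = 0.88). Over all probe sets, 2.6% lay lower with siRNA-140 without overlap, and 3.5% lay higher, where none of the 9 genes did. siRNA-96 replicate 1, the lowest array of its group for the other 8 genes, was the highest array at the brighter Zbp1 probe set. The whole range over the siRNA arrays was 0.4 there. The dimmer Zbp1 probe set read 3.47, 2.75 and 3.36 with siRNA-140, against 3.43, 3.22 and 3.74 with siRNA-96. At this dimmer probe set the groups overlapped, siRNA-96 replicate 3 was highest and the range was 0.99. Its log2 difference was -0.27 ± 0.18. The brighter probe set lay near the array median on every array.

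Ifi35 encodes a leucine zipper protein that partners with Nmi, and Xaf1 encodes an antagonist of the apoptosis inhibitor XIAP. Ifi35 was the brightest of the 9 genes. It read 8.63, 9.05 and 8.87 with siRNA-140, against 8.68, 9.38 and 9.82 with siRNA-96, a log2 difference of -0.44 ± 0.22 (interval -0.91 to 0.02). Here siRNA-140 replicate 3 lay between the other 2 siRNA-140 arrays, unlike for Rtp4 or Xaf1. The other Ifi35 probe sets differed by -0.35 ± 0.18 and -0.33 ± 0.14, and by -0.68 ± 0.14 and -0.5 ± 0.12 without both arrays. With antimicroRNA-140 Ifi35 read 8.66, 8.98 and 8.66, against 8.74, 8.81 and 8.71 with antimicroRNA-449.

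The Xaf1 window, at chr11:72301379-72301678 on the plus strand of GRCm38.p6, is shown because Xaf1 was among the genes with the widest range, and its match in capitals is the form with 1 free base, at positions 11 to 19.
Xaf1: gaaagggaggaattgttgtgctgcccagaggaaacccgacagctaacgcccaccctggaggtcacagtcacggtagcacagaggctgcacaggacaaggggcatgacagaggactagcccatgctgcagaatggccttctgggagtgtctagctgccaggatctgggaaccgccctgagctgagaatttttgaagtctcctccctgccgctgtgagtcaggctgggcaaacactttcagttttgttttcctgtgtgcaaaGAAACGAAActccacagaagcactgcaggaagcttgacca
Xaf1 read 6.36, 6.71 and 8.72 with siRNA-140, against 6.42, 9.32 and 9.49 with siRNA-96. Its values split into 3 high and 3 low arrays with a gap of over 2 log2 units between them, each group holding both kinds. The group means were 7.26 ± 1.27 with siRNA-140 and 8.41 ± 1.73 with siRNA-96 (SD, n = 3 each), a log2 difference of -1.15 ± 0.69 (interval -2.62 to 0.33). Its dim second probe set gave -0.06 ± 0.13. At its brightest probe set Xaf1 read 5.59, 6.2 and 5.75 with antimicroRNA-140, against 5.87, 5.75 and 5.74 with antimicroRNA-449, below every siRNA array. At the dim one the antimicroRNA-140 arrays read 3.05 to 3.12 and the antimicroRNA-449 arrays 3.04 to 3.19. These values lay within the range of the siRNA arrays there, 2.95 to 3.57.

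**Figure D1:**
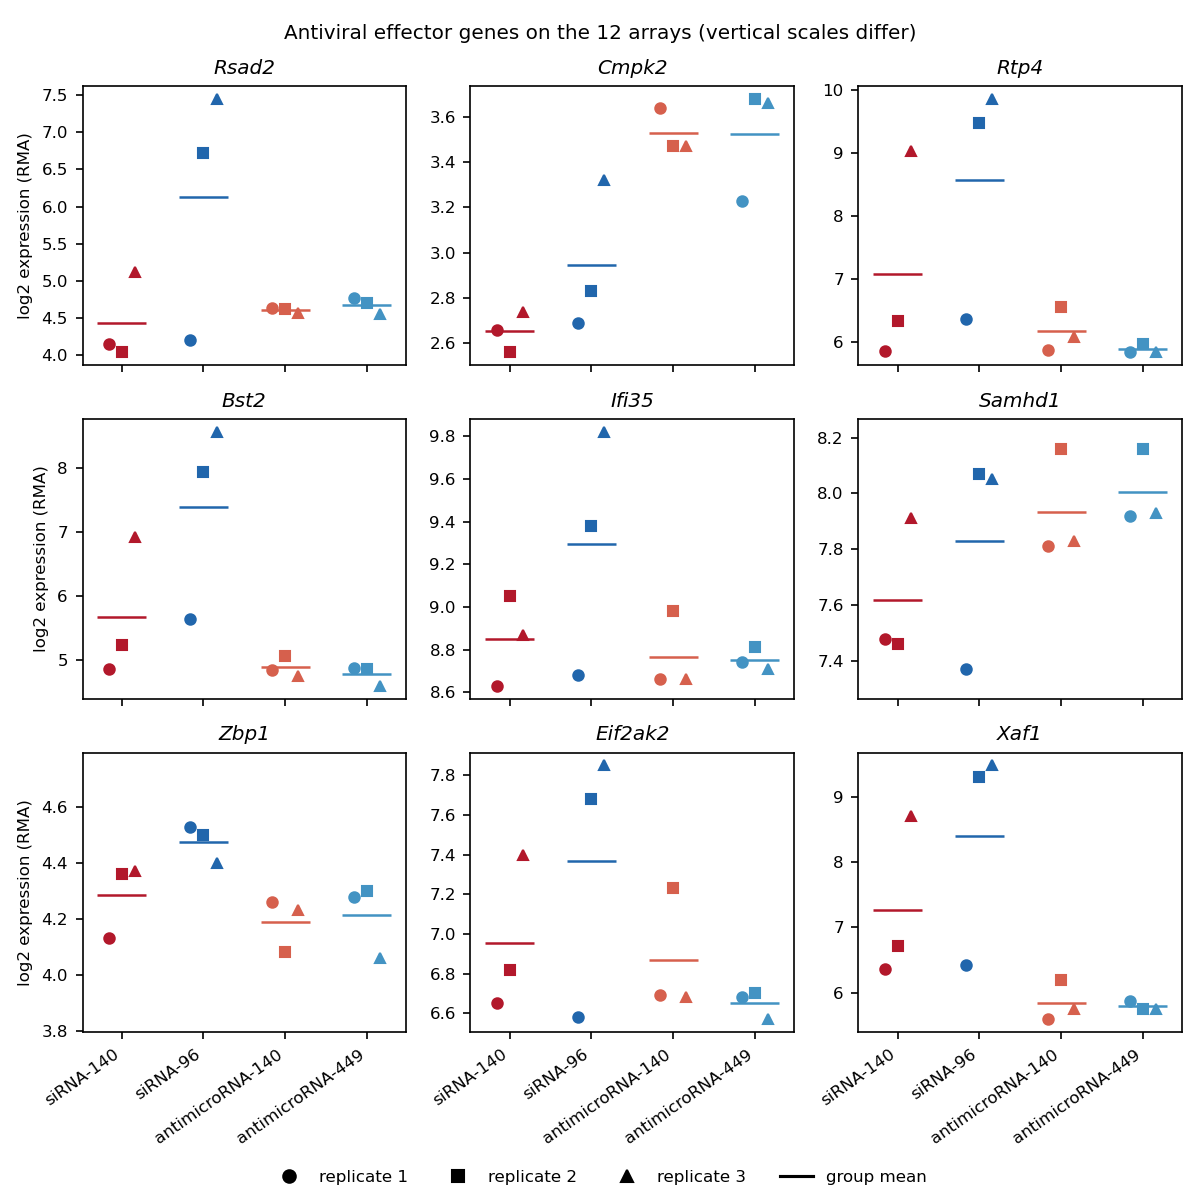
Log2 expression (RMA) of the 9 genes at their brightest probe set on each array, by group, with the replicate number as the symbol and the group mean as a line; vertical scales differ between panels. For Rsad2, Rtp4, Bst2, Eif2ak2 and Xaf1, siRNA-140 replicate 3 and siRNA-96 replicate 1 lie away from the rest of their groups, while the antimicroRNA arrays span less than the siRNA arrays.

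Of the 10 listed genes, 8 had a promoter window in the RefSeq table, with none for Rtp4 and Zbp1. Either form of the response element core was in 6 of these 8 windows (Rsad2, Bst2, Ifi35, Ifi44, Eif2ak2 and Xaf1), against 6.27% of 32851 windows of all genes. Among other interferon-induced genes, either form was in 19 of 41 windows (46.3%). The form with 2 free bases alone was in 3 of the 8, against 3.44% of all windows, and the form with 1 in another 3, against 3.17%. For the other interferon-induced genes these shares were 43.9% and 12.2%. The gamma-activated site core TTCNNNGAA, which reads the same on both strands, was in 4 of the 8 (Bst2, Ifi35, Samhd1 and Eif2ak2). It was in 8.3% of all windows and in 19.5% of those of the other interferon-induced genes. In Bst2 and Ifi35 it overlapped a response element match by letters. A match of letters is a description and shows no binding, and the windows with no match (Cmpk2 and Samhd1 for the response element) cover only these 300 bases.

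Set against siRNA-96, no member passed the test with siRNA-140. limma called 0 of the 9 genes and 0 of 45037 probe sets, a percent called of 0% in both directions, with a smallest adjusted p of 0.88. At an unadjusted p under 0.05, Rsad2 and Bst2 were lower, 2 of the 9, against 1.88% of all probe sets, and 2292 probe sets passed in either direction. All 9 log2 differences lay below 0, with a median of -0.44, against a median of 0.02 over all probe sets. In bulk samples, fewer responding cells and less RNA per cell cannot be told apart. Fitted without the antimicroRNA arrays, the 6 siRNA arrays widened the interval of Rsad2 to -3.34 to -0.04 and that of Bst2 to -3.44 to 0.02, with 0 genes called.

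Without both siRNA-140 replicate 3 and siRNA-96 replicate 1, 7 of the 9 genes were lower with siRNA-140 (limma adjusted p under 0.05, 10 arrays), where 3.85% of all probe sets were called lower, and none was higher, against 5.13%. Both arrays were left out for their profile over all genes, members included. The adjusted p-values, the sizes of the differences and their standard errors therefore give no independent evidence. The differences rest on the 4 remaining siRNA arrays, and their spread was estimated together with that of the antimicroRNA arrays. Rtp4 was lower by a log2 difference of -3.58 ± 0.21, an 11.9-fold change, and Bst2 by -3.2 ± 0.19, a 9.19-fold change. Rsad2 was lower by -2.99 ± 0.18 (7.94-fold) and Xaf1 by -2.87 ± 0.18 (7.31-fold). Smaller differences were found for Eif2ak2 (-1.03 ± 0.17), Ifi35 (-0.76 ± 0.17) and Samhd1 (-0.59 ± 0.13). All these values are for the brightest probe sets. The other probe sets of Rsad2, Rtp4, Eif2ak2 and Ifi35 passed as well. None of the other Samhd1 probe sets passed, the largest difference being -0.32 ± 0.13 (limma adjusted p = 0.168). The dim Xaf1 probe set did not pass either (-0.27 ± 0.11; limma adjusted p = 0.207). At their brightest probe sets, Cmpk2 (-0.47 ± 0.17; adjusted p = 0.136) and Zbp1 (-0.21 ± 0.12; adjusted p = 0.407) did not pass. The dimmer Cmpk2 probe set was lower by -1.48 ± 0.17 (limma adjusted p = 0.000106, and 0.0012 with the 4 remaining siRNA arrays alone). The median over the 9 genes was -1.03, against 0.04 over all probe sets. With the 4 remaining siRNA arrays alone, Ifi35 no longer passed (limma adjusted p = 0.0608) and 6 genes did, where 1.85% of all probe sets were called lower and 2.02% higher. The remaining siRNA-140 arrays both read below the remaining siRNA-96 arrays for all 9 genes, as for 16.4% of all probe sets.

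**Figure D2:**
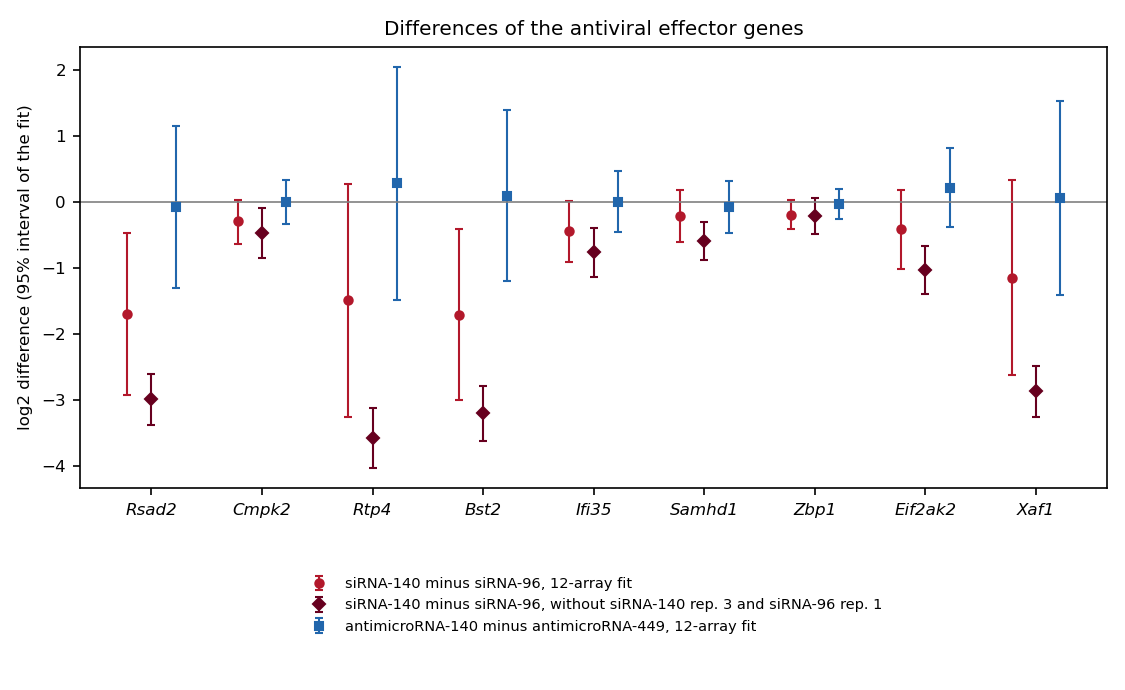
Log2 differences of the 9 genes with 95% intervals from limma: siRNA-140 minus siRNA-96 in the 12-array fit (circles), the same without both siRNA-140 replicate 3 and siRNA-96 replicate 1 (diamonds), and antimicroRNA-140 minus antimicroRNA-449 (squares). Leaving out both arrays moved Rtp4 to -3.58, against -1.49 with all arrays, and left Zbp1 near its value.

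Single arrays decided much of the siRNA difference. With siRNA-96 replicate 1 left out, Rsad2 (-2.65, limma adjusted p = 0.00158) and Bst2 (-2.57, adjusted p = 0.0416) passed. In that fit 36 of 45037 probe sets were lower and 0 higher. This array is among those that stood apart by their profile, so these differences and adjusted p-values give no independent evidence. Leaving out siRNA-140 replicate 3 moved no member past the threshold. Leaving out siRNA-96 replicate 3 brought the median over the 9 genes to -0.23, and leaving out siRNA-96 replicate 1 brought it to -0.81. Over all 12 fits with 1 array left out, the difference of Rtp4 lay between -2.6 and -0.84, that of Rsad2 between -2.65 and -1.03, and that of Xaf1 between -2.14 and -0.61. No member changed sign in this comparison.

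**Figure D3:**
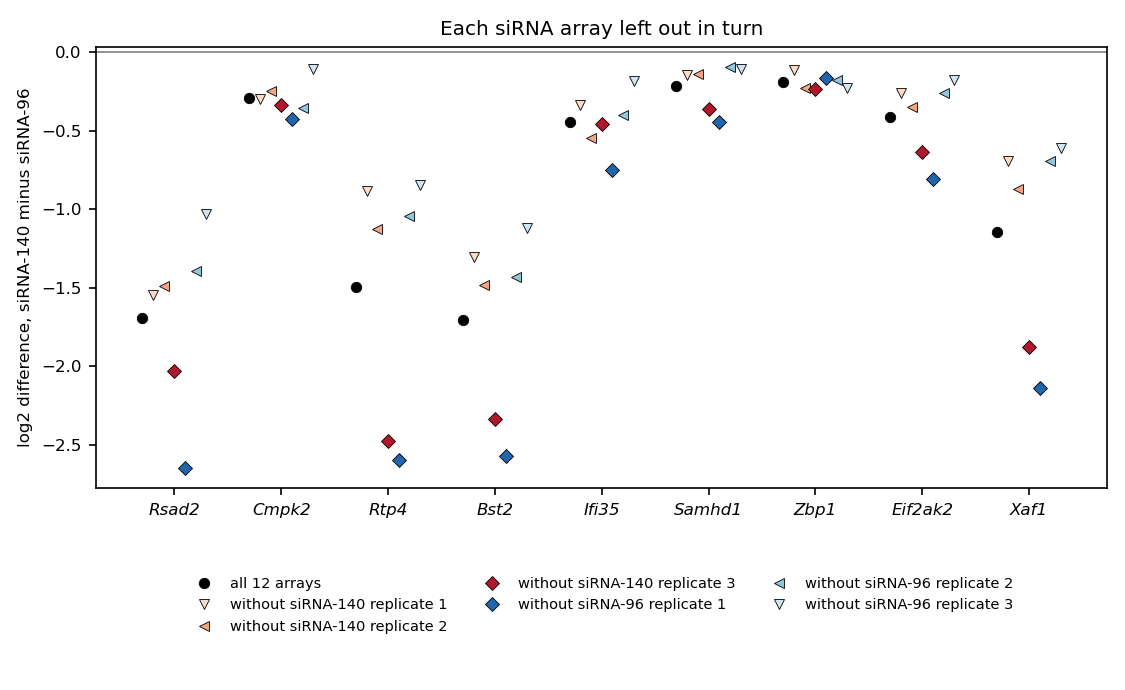
Log2 difference siRNA-140 minus siRNA-96 of each gene at its brightest probe set, with all 12 arrays (black) and with each siRNA array left out. Diamonds mark the fits without siRNA-140 replicate 3 or siRNA-96 replicate 1, which lie lowest for Rsad2, Rtp4, Bst2 and Xaf1. All points lie below 0.

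The order of the siRNA arrays was alike for most members. For 7 of the 9 genes (all but Ifi35 and Zbp1), siRNA-140 replicates 1 and 2 and siRNA-96 replicate 1 all read below the other 3 siRNA arrays. This order held for 10.2% of all probe sets and for 34 of 44 other interferon-induced genes. The 3 higher arrays differed too. siRNA-140 replicate 3 read below both siRNA-96 replicates 2 and 3 for all 9 genes, against 28.2% of all probe sets. siRNA-96 replicate 3 was the highest siRNA array for 7 genes (all but Samhd1 and Zbp1), against 15.1% of all probe sets. It exceeded siRNA-96 replicate 2 by 0.73 for Rsad2, 0.62 for Bst2, 0.39 for Rtp4 and 0.17 for Xaf1, and by a median of 0.39 over the 9 genes, against 0 over all probe sets. A range of at least 2 log2 units over the siRNA arrays was found for 4 genes (Rsad2, Rtp4, Bst2 and Xaf1), against 0.302% of all probe sets. These counts describe the arrays and were not tested, since the order was seen in the values.

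Probe sets of 1 gene differed in size, and all 23 lay below 0 but for a pair of Samhd1. Of the 23 probe sets, 9 spanned at least 1 log2 unit over the siRNA arrays, against 4.07% of all probe sets. The groups of 3 did not overlap at 3 of the 23: the brighter one of Zbp1, the dimmer one of Cmpk2 and the dimmest of Samhd1, where 2.6% of all probe sets lay lower and 3.5% higher without overlap. All 3 had a small level, with mean log2 values of 4.29, 2.37 and 3.21. For Rsad2, the dimmest of its 3 probe sets had the largest difference, -2.12, and it reached -3.64 ± 0.22 without both arrays. For Rtp4 and Xaf1 the dim probe sets gave less, -0.61 ± 0.13 and -0.27 ± 0.11 without both arrays, than the bright ones. That pair of Samhd1 probe sets, which carry no accession in the platform annotation, gave 0 ± 0.11 and -0.04 ± 0.12 without both arrays, against -0.59 at the brightest.

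**Figure D4:**
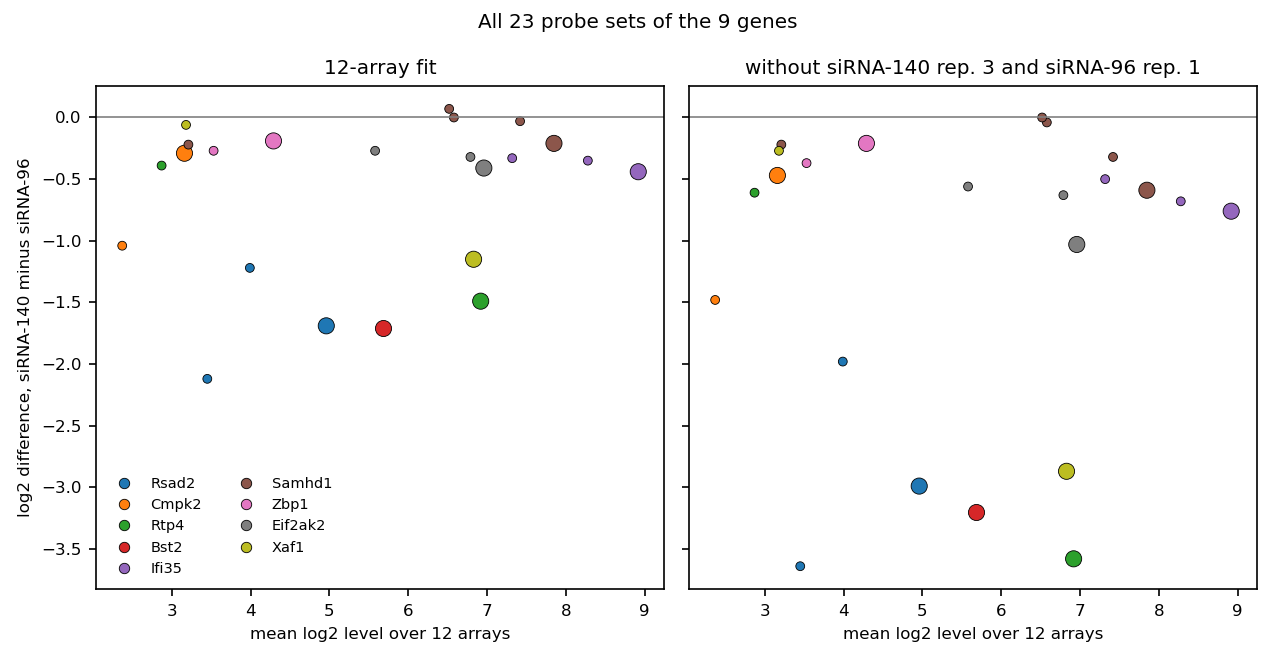
Log2 difference siRNA-140 minus siRNA-96 of all 23 probe sets against their mean log2 level over the 12 arrays, in the 12-array fit (left) and without both siRNA-140 replicate 3 and siRNA-96 replicate 1 (right). Large points are each gene's brightest probe set. The largest differences lie at the probe sets of Rsad2, Bst2, Rtp4 and Xaf1. Without both arrays the brightest Samhd1 probe set is at -0.59, while a pair of others stays near 0.

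The second comparison asked what changes when endogenous miR-140 is suppressed, set against a suppression of miR-449. No member passed, and limma called 0 of the 9 genes and 0% of probe sets in either direction. At an unadjusted p under 0.05, 0 members and 1022 probe sets were found, with 1.33% of all probe sets lower and 0.935% higher. Differences lay between -0.07 for Rsad2 and Samhd1 and 0.29 for Rtp4, with a median of 0.01, against 0 over all probe sets. The groups overlapped for every member, while 4.34% of all probe sets lay lower and 4.06% higher without overlap. In the fit of the 6 antimicroRNA arrays alone, which leaves out the wide spread of the siRNA arrays, Rtp4 differed by 0.29 ± 0.16 (95% interval -0.07 to 0.64), Eif2ak2 by 0.22 ± 0.14 (interval -0.11 to 0.54) and Rsad2 by -0.07 ± 0.08 (interval -0.25 to 0.11). For Bst2 that interval was -0.15 to 0.36 and for Xaf1 -0.27 to 0.39, so changes of 1 log2 unit lie outside these intervals.

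Within the antimicroRNA experiment, antimicroRNA-140 replicate 2 read highest of the 6 arrays for 5 of the 9 genes (Rtp4, Bst2, Ifi35, Eif2ak2 and Xaf1), against 15.8% of all probe sets. It exceeded the mean of the other 5 arrays by 0.64 for Rtp4, 0.57 for Eif2ak2 and 0.46 for Xaf1. Rsad2 (-0.03) and Cmpk2 (-0.07) showed no such step. Among other interferon-induced genes it was the highest array for 16 of 44, with 1.78 for Ifit1. Without this array, the difference of Rtp4 was 0.093 and that of Eif2ak2 0.035, against 0.29 and 0.22 with it. The difference of Xaf1 was then -0.12, that of Ifi35 -0.09 and that of Zbp1 0.03, against 0.06, 0.01 and -0.02 with it. The array was singled out after its values were seen.

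The difference of both contrasts, siRNA-140 minus siRNA-96 less antimicroRNA-140 minus antimicroRNA-449, was tested in the same fit. limma called 0 of the 9 genes and 0% of probe sets, with 0 members and 1322 probe sets (1.07% lower and 1.87% higher) at an unadjusted p under 0.05. Values ran from -1.81 ± 0.85 for Bst2 (95% interval -3.64 to 0.02) to -0.14 ± 0.26 for Samhd1. Without both siRNA-140 replicate 3 and siRNA-96 replicate 1, 5 genes were called, all lower (Rsad2, Rtp4, Bst2, Eif2ak2 and Xaf1), where 2.13% of all probe sets were lower and 2.28% higher.

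Other genes of the pathway were read from lists written from general knowledge. Of 22 listed interferon ligands, receptors and signal transducers, 19 had a probe set, and 0 passed with siRNA-140 (median log2 difference -0.11). The interferon gene Ifnb1 differed by -0.18 ± 0.19 and the receptor gene Ifnar1 by 0.18 ± 0.1, and without both arrays by -0.32 ± 0.2 and 0.19 ± 0.13. Irf7, a transcription factor that amplifies interferon production, read 4.65, 4.77 and 6.61 with siRNA-140, against 5.24, 7.34 and 7.6 with siRNA-96. Its order of arrays was that of most members, with a log2 difference of -1.38 ± 0.54. Without both arrays, 4 of the 19 were lower and 0 higher: Irf7 (-2.76 ± 0.13), Irf9 (-1.79 ± 0.23), Stat2 (-1.56 ± 0.18) and Irf1 (-0.61 ± 0.11). In that fit, added after the values were seen, 3.85% of all probe sets were lower and 5.13% higher.

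Of 19 listed genes of nucleic acid sensing, 16 had a probe set and 0 passed with siRNA-140 (median -0.14). The largest differences were those of the RNA helicase genes Dhx58 (-0.94 ± 0.54), Ddx58 (-0.89 ± 0.46) and Ifih1 (-0.86 ± 0.3), and of Zc3hav1 (-0.53 ± 0.18), which encodes an RNA-binding antiviral protein. Without both arrays, 6 of the 16 were lower and 0 higher, among them Dhx58 (-2.19 ± 0.18), Ddx58 (-2.04 ± 0.17) and Ifih1 (-1.44 ± 0.19), while Zc3hav1 (-0.67 ± 0.22) did not pass. In that fit, added after the values were seen, 3.85% of all probe sets were lower and 5.13% higher. Of 45 other interferon-induced genes, 44 had a probe set, 0 passed and 42 lay below 0, with a median of -0.84. Iigp1 (-2.46 ± 1.13), Oasl2 (-2.2 ± 1.01), Usp18 (-2.11 ± 1.09) and Ifit3 (-1.98 ± 0.82) had the largest differences, and the 9 genes described here lay within the range of this list. Without both arrays, 37 of the 44 were lower and 0 higher, against the same 3.85% and 5.13% of all probe sets. The median of the list was then -1.86, and the same genes were at -5.26 ± 0.31 (Iigp1), -4.74 ± 0.2 (Oasl2), -4.85 ± 0.35 (Usp18) and -3.98 ± 0.26 (Ifit3). With antimicroRNA-140, 0 members of any of these lists passed, and their medians lay between -0.06 and 0.03.

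Partners of the member proteins were read from a list of 32, of which 28 had a probe set. None passed with siRNA-140 (0 of 28), and the median was 0.06. Nmi, the partner of Ifi35, differed by -0.39 ± 0.25, Plin2, a lipid droplet protein gene, by 0.25 ± 0.18, Mlkl, the necroptosis effector gene downstream of Zbp1, by -0.21 ± 0.17, and the eIF2alpha kinase gene Eif2ak3 by 0.2 ± 0.11. Without both arrays, 1 was lower, Nmi (-0.96 ± 0.13), and 2 were higher, Plin2 (0.65 ± 0.1) and Rrm2 (0.44 ± 0.1), a subunit gene of the enzyme that makes deoxynucleotides. These counts of 28 lie near the shares over all probe sets, 3.85% lower and 5.13% higher. Mlkl (-0.42 ± 0.18) and Eif2ak3 (0.35 ± 0.12) did not pass there either. Rrm2 did not pass with the 4 siRNA arrays alone (limma adjusted p = 0.146). Of the 9 macrophage and leukocyte markers, 1 was lower and 1 higher without both arrays, Csf1r (-0.51 ± 0.14) and Itgam (0.46 ± 0.13), and neither was called with the 4 siRNA arrays alone. In the same 10-array fit, 1 of 9 mesenchymal markers was lower (Pdgfra, -0.45 ± 0.11, not called with the 4 siRNA arrays alone), 1 of 7 epithelial markers higher (Krt14, 1.49 ± 0.19) and 1 of 5 endothelial markers higher (Tek, 0.6 ± 0.13). Over all probe sets 3.85% were lower and 5.13% higher, and the part of other cells in the results was not tested.

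The genes most like the members over the 6 siRNA arrays were sought among 409 genes at or above the median level with a standard deviation of at least 0.5. Likeness was Pearson's r with the mean of the 9 centred members. The siRNA arrays fall into separate sets, so these values only order the genes. The closest were Ifit3 (0.999), Ifit1 (0.997), Parp14 (0.997), Tapbp (0.996), Tor3a (0.994) and Irgm1 (0.992). Tapbp encodes tapasin, which loads peptides on MHC class I, and read 8.84, 8.95 and 9.55 with siRNA-140, against 9, 9.8 and 10.12 with siRNA-96. The opposite pattern was closest for Mitf (-0.987), Gna14 (-0.985), Umad1 (-0.984) and Celf2 (-0.981). Mitf, a transcription factor gene of pigment cells, read 5.59, 5.52 and 4.03 with siRNA-140, against 5.34, 3.81 and 3.46 with siRNA-96.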

How the data were processed

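Biotin-labelled RNA, purified on RNeasy columns per the labels' protocols, was hybridised. The authors deposited log2 values, for which the submitters' processing notes name RMA with no version. RMA corrects background, normalizes arrays and summarises probes into probe sets. The notes do not state whether both experiments were normalized together.

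Groups and replicate numbers came from sample titles. Of the probe sets, 64 array controls were left out, and 45037 were tested without a level filter. Symbols came from the platform annotation: 34945 probe sets had 1 symbol, 932 several and 9160 none, and only those with 1 name a gene. limma 3.58.1 in R 4.3.3 fitted 4 group means over 12 arrays with eBayes, which gave standard errors and 95% intervals. Calls used a Benjamini-Hochberg adjusted p under 0.05 over all 45037. The fit was tested on simulated data with independent noise on each array, which do not model arrays that cross the labelled groups. With 3 arrays a group, their number limits the precision.

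The alternatives were the 6 arrays of 1 experiment alone, the replicate block, quantile normalization, median centring, a level filter, a trend with robust variances, each gene's mean over its probe sets, an unadjusted p and each array left out. The fits without both siRNA-140 replicate 3 and siRNA-96 replicate 1 were added after the values were seen. The members and lists were chosen with earlier results of these data known. Named genes were all members, up to 4 genes with the largest siRNA-140 against siRNA-96 difference from each list, and the 6 most and 4 least like the members. Ifnb1 and Ifnar1 were named beyond this rule, as ligand and receptor, and the list genes called without both arrays, where they numbered 5 or fewer, after their values were seen.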

Additional observations from a re-analysis of the deposited data

How the results depend on the processing

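With the replicate number as a block, 0 probe sets and 0 members were called in each comparison (smallest adjusted p = 0.824 for siRNA-140 against siRNA-96). Between arrays of the same replicate number, deviations correlated at 0.41, -0.241 and 0.439 for siRNA replicates 1, 2 and 3. For the antimicroRNA replicates the values were -0.014, 0.103 and -0.032. The sign was not the same for all replicates, and these values cannot settle whether arrays were paired by number. For siRNA-140 against siRNA-96, leaving out 1 array gave 0 to 36 called probe sets, 0 to 2 members, 0 to 3 nucleic acid sensing genes and 0 to 12 other interferon-induced genes, with 36 without siRNA-96 replicate 1 and 25 without siRNA-96 replicate 2. The difference of both contrasts gave 0 to 1. Leaving out siRNA-140 replicate 3 together with siRNA-96 replicate 1, the 10-array fit called 4043 probe sets, 7 members, 4 signalling, 6 sensing, 37 other interferon-induced and 3 partner genes. The 4-array fit called 1743, 6, 3, 4, 34 and 2, and the difference of both contrasts 1985 probe sets and 5 members. The cause was not tested. At an unadjusted p, which passes more by construction, siRNA-140 against siRNA-96 had 2292 probe sets, 2 members, 3 signalling, 2 sensing and 17 other interferon-induced genes. antimicroRNA-140 against antimicroRNA-449 had 1022 probe sets and the difference of both contrasts 1322. All 9 members kept their direction for siRNA-140 against siRNA-96 in every alternative that measured them, where the level filter removed Cmpk2. For antimicroRNA-140 against antimicroRNA-449, values near 0 changed sign and none was called: Ifi35 to -0.0044 after quantile normalization, and, with the mean of all probe sets, Ifi35 to -0.0033, Samhd1 to 0.0153 and Zbp1 to 0.1117. With 1 array left out, Cmpk2 lay between -0.1433 and 0.0817, Ifi35 between -0.0933 and 0.0667, Samhd1 between -0.1833 and 0.0083, Zbp1 between -0.1 and 0.0317, and Xaf1 between -0.1167 and 0.1883. RMA values carry no detection call, so for dim probe sets such as those of Cmpk2 and Zbp1 a change may go unread.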
